A study of Mus musculus with 5 samples.

Results

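The 10 genes described here hold back the cell cycle or respond to p53, and were read in 5 mouse RNA sequencing libraries. They are the rows of the deposited count table with the symbols Cdkn1a, Cdkn1b, Cdkn1c, Cdkn2a, Cdkn2b, Trp53, Mdm2, Gdf15, Ccng1 and Btg2. All 10 were found among the 34970 gene symbols of the table, and all 10 reached 5 CPM in at least 1 library. CPM (counts per mega-count of a library) were taken after the library totals were adjusted by edgeR's TMM method. The series concerns the conversion of fibroblasts into macrophages. MCC stands for a myeloid-like cell complex in the labels, iPSC that of induced pluripotent stem cells, MEF that of mouse embryonic fibroblasts, PB that of blood cells, and BM that of bone marrow. For PB the sources differ, naming plasma blood cells, blood cells or CD45+ cells, so which cells its values describe is not settled. All 5 are labelled wild type. The strain, age and sex of the mice, the number of animals or cultures behind each library, how the MCC cells were made and how the cells were grown are not stated in the labels. Each group is 1 library, so differences could not be set against a spread between replicates, and p-values were not computed. Intervals are 95% intervals that cover counting error only.

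The cell cycle is driven through G1 by cyclin-dependent kinases (CDKs), and a pair of inhibitor families restrains them. INK4 proteins bind CDK4 and CDK6 and keep them from D-type cyclins, whereas CIP/KIP proteins bind cyclin-CDK complexes more broadly. The transcription factor p53 is held at a low level by the ubiquitin ligase MDM2, whose own gene p53 activates, and damage or oncogene signals release it to switch on arrest and death genes. Both the Ink4a/Arf locus and the p53 pathway are known barriers to reprogramming, and their products accumulate in fibroblasts grown in culture.

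Promoter windows of RefSeq, build GRCm38.p6, were searched for the p53 response element, a pair of joined 10-base motifs, over the 250 bases before each annotated start site. The element reads the same on both strands, and at most 1 mismatch was allowed in its 20 bases. Windows were at hand for 9 of the 10 genes, 12 windows in all. The element was found in 2 of these 12, 1 for Cdkn1a and 1 for Ccng1, and in 25 of all 32851 windows, or 0.0761%. Both windows are shown because they hold it, in capitals, 5′ to 3′ on the gene's strand. The Cdkn1a window lies at chr17:29090729-29090978 (plus strand), before the more upstream of the gene's 2 start sites, with the element at chr17:29090928-29090947. The Ccng1 window lies at chr11:40755287-40755536 (minus strand), with the element at chr11:40755462-40755481.
Cdkn1a: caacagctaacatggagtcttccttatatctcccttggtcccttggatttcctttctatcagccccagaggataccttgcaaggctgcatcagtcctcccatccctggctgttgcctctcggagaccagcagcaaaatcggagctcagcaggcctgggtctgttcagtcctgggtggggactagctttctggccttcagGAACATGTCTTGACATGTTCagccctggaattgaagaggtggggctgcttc
Ccng1: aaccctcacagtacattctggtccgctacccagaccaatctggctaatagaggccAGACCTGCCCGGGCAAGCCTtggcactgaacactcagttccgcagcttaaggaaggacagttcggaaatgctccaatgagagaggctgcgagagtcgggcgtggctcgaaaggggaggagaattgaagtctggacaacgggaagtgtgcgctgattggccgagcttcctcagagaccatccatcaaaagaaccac
A match describes these letters and no more.

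The Ink4 locus on chromosome 4 is shown because its genes gave the widest span between libraries. In GENCODE M21 on mm10, Cdkn2a runs from chr4:89274471-89294653 and Cdkn2b from chr4:89306299-89311039, both on the minus strand. Cdkn2a has 2 transcripts with separate first exons, chr4:89294334-89294653 for the one that encodes p19ARF and chr4:89281986-89282192 for the one that encodes p16INK4a, joined to a shared exon at chr4:89276645-89276985. Counts per symbol add both transcripts together, so p16INK4a and p19ARF cannot be told apart here. The RefSeq windows for the 3 start sites follow in the same order, at chr4:89294620-89294869, chr4:89282193-89282442 and chr4:89311033-89311282. RefSeq and GENCODE starts differ, so the Arf and Cdkn2b windows overlap the first bases of the GENCODE genes. CG dinucleotides are in capitals.
Cdkn2a Arf start: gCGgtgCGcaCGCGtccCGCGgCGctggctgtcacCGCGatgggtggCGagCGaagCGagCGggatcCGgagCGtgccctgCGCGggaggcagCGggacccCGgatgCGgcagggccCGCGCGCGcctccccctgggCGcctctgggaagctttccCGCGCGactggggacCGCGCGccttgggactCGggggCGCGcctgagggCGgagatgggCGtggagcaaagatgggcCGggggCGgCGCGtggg
Cdkn2a Ink4a start: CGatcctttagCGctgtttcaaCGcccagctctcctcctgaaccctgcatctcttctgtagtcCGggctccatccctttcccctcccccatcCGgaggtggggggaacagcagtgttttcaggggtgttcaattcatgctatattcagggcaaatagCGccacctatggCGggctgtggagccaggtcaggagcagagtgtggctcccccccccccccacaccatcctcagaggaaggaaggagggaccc
Cdkn2b: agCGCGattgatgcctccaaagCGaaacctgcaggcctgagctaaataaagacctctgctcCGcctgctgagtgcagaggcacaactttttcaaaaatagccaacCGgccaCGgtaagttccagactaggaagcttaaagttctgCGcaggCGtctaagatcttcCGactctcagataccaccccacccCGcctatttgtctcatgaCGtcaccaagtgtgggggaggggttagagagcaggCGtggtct
The Arf window held 40 CG dinucleotides, more than 98.7% of all windows, the Ink4a window 7 and the Cdkn2b window 12, beside a median of 6 over all windows.

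The libraries held from 30078366 (PB) to 47557598 (MCC) counts. Marker genes were read against the labels. All 7 macrophage markers were at 5 CPM or more in MCC, 1 in iPSC, 0 in MEF, 3 in PB and 7 in BM, and all 8 fibroblast markers in MCC and MEF. Summed fibroblast markers came to 27970 CPM in MCC, 379 in iPSC, 18853 in MEF, 173 in PB and 122 in BM, so MCC held macrophage and fibroblast transcripts together. All 6 pluripotency markers were at 5 CPM or more in iPSC and in no other library. Summed B cell markers came to 1531 CPM in PB and 679 in BM, T and NK cell markers to 690 in PB and 137 in BM, neutrophil markers to 5260 in PB and 61020 in BM, and erythroid markers to 81400 in PB and 10182 in BM. In MCC the B cell, T and NK cell, neutrophil and erythroid sums were 0.440, 3.49, 4.77 and 9.998 CPM. The erythroid sum in PB stands beside the design text's CD45+ cells, a description that leaves mature red cells out. PB carries a library code outside the run of the other 4, so an effect of batch cannot be told apart from one of the cells in PB. In mixed cells such as these, fewer cells of a type and less RNA per cell cannot be told apart.

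Cdkn2a and Cdkn2b were at trace levels in both blood libraries and clearly expressed in the other 3. Cdkn2a, whose products p16INK4a and p19ARF restrain CDK4/6 and MDM2, stood at 169 CPM in MCC, 73.4 in iPSC, 84.4 in MEF, 0.0670 in PB and 0.147 in BM. PB and BM rest on 2 and 6 reads, and their levels did not differ beyond counting error. MCC was highest, 2.002-fold (1.92 to 2.08) above MEF and 2.30-fold (2.21 to 2.39) above iPSC. Against the blood libraries MCC was 2525-fold (699 to 20854) higher than PB and 1148-fold (527 to 3129) higher than BM. Cdkn2b, which encodes the INK4 protein p15, had 44.2 CPM in MCC, 36.3 in iPSC, 95.7 in MEF, 0.0335 in PB and 0.0736 in BM, the last 2 from 1 and 3 reads. Here MEF was highest, and MCC was 2.16-fold (2.05 to 2.29) lower than MEF. MCC was 1.22-fold (1.14 to 1.30) higher than iPSC, a direction that turned with scaling by total counts. The 2 neighbouring genes thus stood in opposite order between MCC and MEF, Cdkn2a higher and Cdkn2b lower in MCC.

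The iPSC library carried Cdkn2a at 87.0% of the MEF level. Fibroblast markers were also detected there, 5 of 8 at 5 CPM or more, with 0 of 8 at 0 reads and a range from 0.0191 to 170 CPM. The sum of these markers was 2.01% of that in MEF. The part of fibroblasts in the Cdkn2a reads of the iPSC library was not tested. Cdkn2a in iPSC was 1.15-fold (1.10 to 1.20) lower than in MEF with TMM scaling. Scaling by total counts turned this ratio to the other direction, so which of the 2 libraries was higher is not settled. Cdkn2b was 2.64-fold (2.50 to 2.78) lower in iPSC than in MEF.

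The CIP/KIP genes followed 3 separate patterns. Cdkn1a, which encodes p21, the inhibitor through which p53 arrests cells, was at 391 CPM in MCC, 200 in iPSC, 279 in MEF, 149 in PB and 11.4 in BM. BM stood far below the rest, with MCC 34.3-fold (31.3 to 37.7) and PB 13.1-fold (11.9 to 14.4) higher than BM. MCC was 1.40-fold (1.37 to 1.44) higher than MEF and 1.96-fold (1.91 to 2.01) higher than iPSC. Cdkn1b, which encodes p27, an inhibitor that accumulates in resting lymphocytes, ran the other way, at 48.2 CPM in MCC, 23.3 in iPSC, 41.0 in MEF, 358 in PB and 118 in BM. MCC was 7.42-fold (7.08 to 7.78) lower than PB and 2.45-fold (2.32 to 2.58) lower than BM. Cdkn1c, the imprinted gene of p57, was at 105 CPM in MCC, 29.7 in iPSC, 30.2 in MEF, 0.502 in PB and 0.687 in BM. MCC was 3.49-fold (3.28 to 3.71) higher than MEF and 3.54-fold (3.34 to 3.76) higher than iPSC, and iPSC and MEF did not differ beyond counting error. Relative to PB and BM, Cdkn1c in MCC was 210-fold (127 to 375) and 153-fold (106 to 231) higher. Of the exon bases of Cdkn1c, 30.7% lie opposite exons of the antisense gene Gm44732, which had 1 read in MCC and 0 in the other libraries. Since the strand setting is not stated, reads of that pair could not be separated where they overlap. For Cdkn1a the corresponding share is 7.68%.

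**Figure D1:**
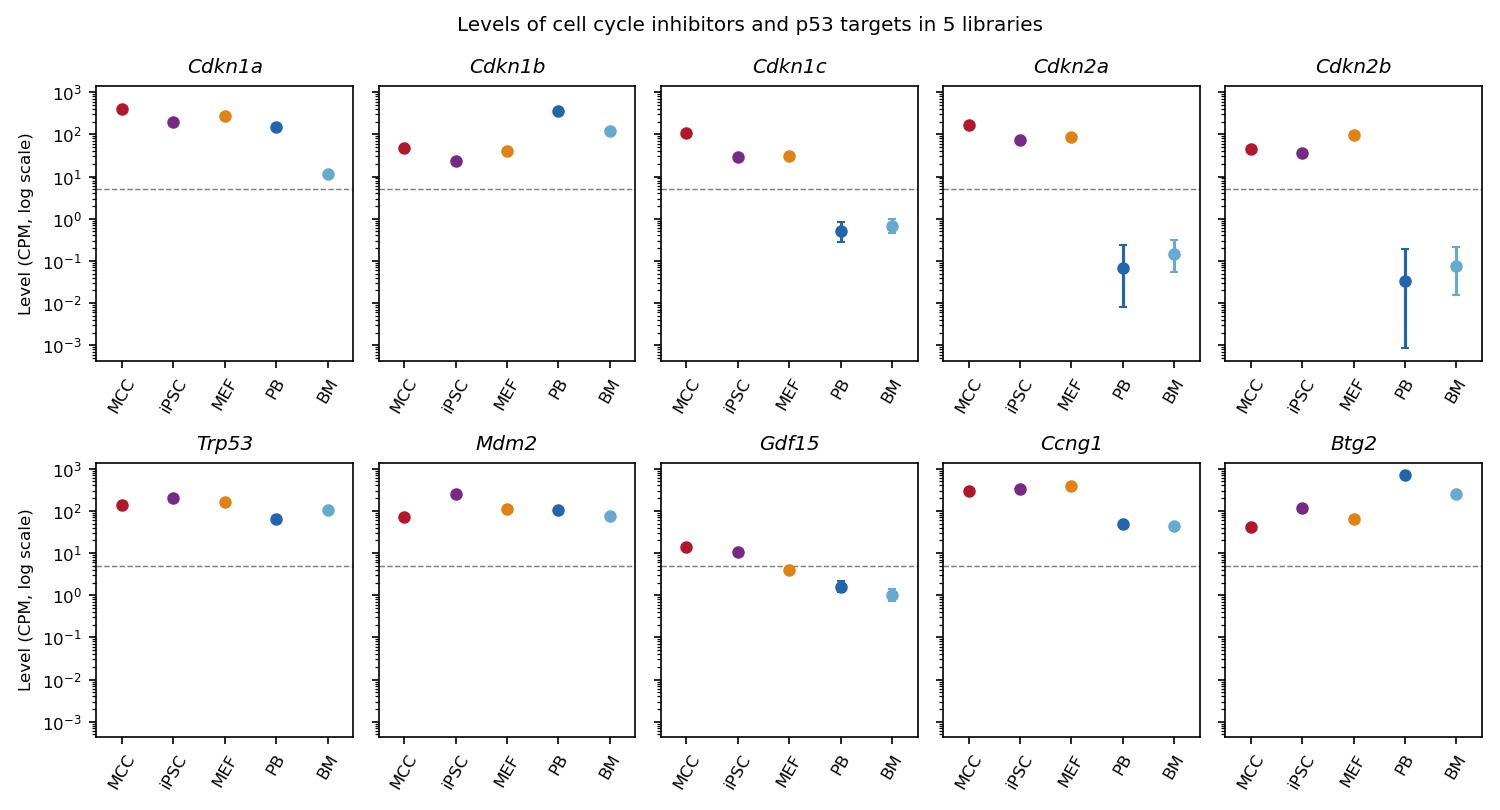
Level of each gene (CPM, log scale) in the MCC, iPSC, MEF, PB and BM libraries; each point is 1 library, bars are exact 95% Poisson intervals and the dashed line is 5 CPM. Cdkn1c, Cdkn2a and Cdkn2b lie below 1 CPM in PB and BM, where Cdkn1b and Btg2 are highest.

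Levels per exon length show which inhibitor made up most of each family. Within CIP/KIP, Cdkn1a held 63.9% of the summed CPM per kb in MCC, 74.1% in iPSC and 76.7% in MEF, whereas Cdkn1b held 65.0% in PB and 87.9% in BM. The share of Cdkn1c was 29.9% in MCC, 19.2% in iPSC and 14.5% in MEF. Within INK4, Cdkn2a and Cdkn2b held 45.0% and 43.0% of the sum in MEF, while Cdkn2a alone held 69.4% in MCC and 58.8% in iPSC. The length used for Cdkn2a, 1172 bases, holds both of its first exons, of 320 and 207 bases, although no transcript carries both. Its level per exon length is therefore understated, and the near-equal shares in MEF do not show equal levels. The length of every other gene likewise joins the exons of all its transcripts, so the shares in both families are approximate. In both blood libraries the INK4 sum came from the other 2 family genes, which are not among the 10. Cdkn2d was 6.85-fold (6.41 to 7.32) lower in MCC than in BM. Cdkn2c was 10.3-fold (8.63 to 12.4) higher in MCC than in PB and 4.51-fold (4.09 to 4.97) higher than in iPSC. Neither reached 4-fold between MCC and MEF. The median log2 ratio of the pair was 0.79 in MCC over MEF, −1.88 over BM, 0.77 over PB and 1.13 over iPSC. Cdkn2d (p19INK4d) held 96.8% in PB and 75.2% in BM, and Cdkn2c (p18INK4c) 3.04% in PB and 24.6% in BM. The INK4 sum itself was 208 CPM per kb in MCC, 107 in iPSC, 160 in MEF, 54.2 in PB and 135 in BM.

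**Figure D2:**
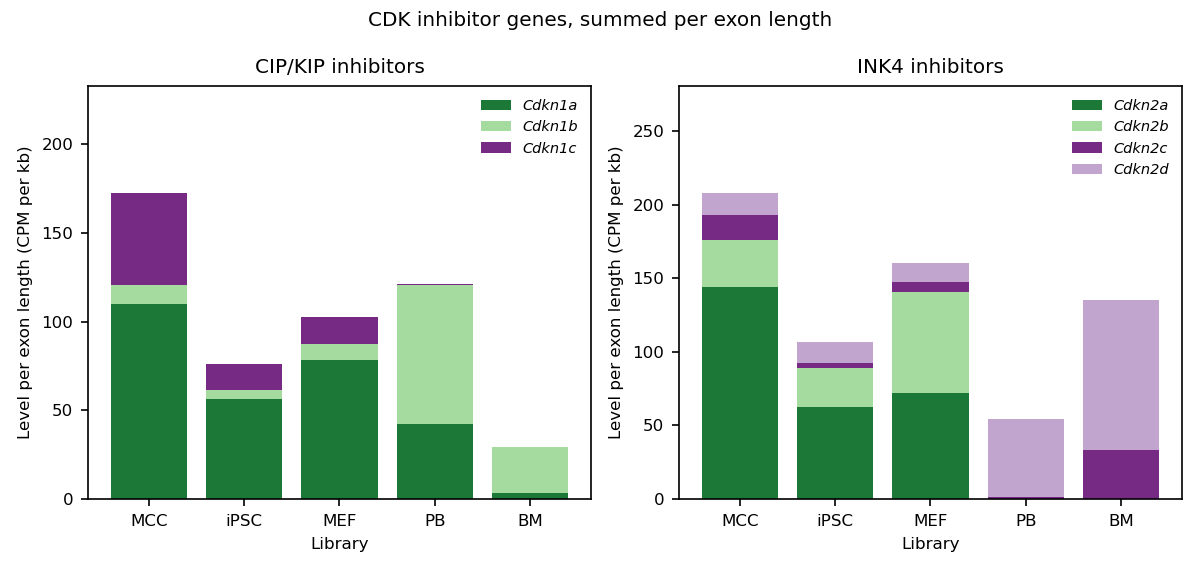
Stacked levels per exon length (CPM per kb) of the CIP/KIP genes (left) and the INK4 genes (right) in each library, 1 library per bar. Cdkn1a and Cdkn2a are the tallest segments in MCC and iPSC, Cdkn1b and Cdkn2d in PB and BM.

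Trp53 and Mdm2, the hub of the pathway, varied least of the 10 genes. Trp53, which encodes p53, was at 139 CPM in MCC, 197 in iPSC, 161 in MEF, 65.0 in PB and 106 in BM, a span of 3.03-fold from the highest to the lowest library. MCC was 1.16-fold (1.12 to 1.20) lower than MEF. Mdm2, which encodes the ligase that degrades p53, was at 70.2 CPM in MCC, 251 in iPSC, 108 in MEF, 107 in PB and 76.6 in BM. The iPSC library stood above all others, and MEF and PB did not differ beyond counting error. Mdm2 was 3.57-fold (3.43 to 3.72) lower in MCC than in iPSC and 1.54-fold (1.48 to 1.62) lower in MCC than in MEF. With scaling by total counts its ratio between MCC and iPSC passed 4-fold. The processed pseudogene Trp53-ps is listed separately in the table and could share reads with Trp53.

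The remaining 3 genes are direct targets of p53, and they did not move together. Ccng1, which encodes cyclin G1, a feedback regulator of p53 and MDM2, was at 290 CPM in MCC, 321 in iPSC, 397 in MEF, 48.4 in PB and 44.5 in BM. MCC was 5.98-fold (5.67 to 6.32) higher than PB and 6.52-fold (6.20 to 6.85) higher than BM, and 1.37-fold (1.34 to 1.40) lower than MEF. The order of iPSC and MEF turned with scaling by total counts. Gdf15, which encodes a secreted stress cytokine, was the lowest of the 10 genes per exon length in MCC, at 7.46 CPM per kb. In CPM its levels were 13.8 in MCC, 10.4 in iPSC, 3.91 in MEF, 1.61 in PB and 1.03 in BM. Gdf15 was 3.54-fold (2.98 to 4.22) higher in MCC than in MEF, with an interval that spans 4-fold, and 8.60-fold (6.40 to 11.8) higher than in PB. Btg2, an antiproliferative gene also induced early by many signals, was at 40.8 CPM in MCC, 114 in iPSC, 63.3 in MEF, 698 in PB and 255 in BM. MCC was lowest for Btg2, 17.1-fold (16.3 to 18.0) below PB, 6.26-fold (5.95 to 6.58) below BM and 2.79-fold (2.64 to 2.94) below iPSC. Cdkn1b and Btg2 were both highest in PB and next in BM, as were the B cell, the T and NK cell and, with the largest values, the erythroid marker sums. The part of lymphocytes or erythroid cells in this was not tested.

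A rule of size was then set on every gene of the table, which asked for 5 CPM in the higher library and a ratio of 4-fold or more, any count below 3 being raised to 3. Between MCC and MEF, 0 of the 10 genes were past it in either direction, where 8.05% of 11720 genes were higher and 2.71% lower. The median log2 ratio of the 10 was 0.01, and −0.01 over all genes tested. Between MCC and iPSC the count was also 0 and 0, beside 11.3% and 9.77% of all genes, with medians of 0.35 and 0.14. Between iPSC and MEF it was again 0 and 0, beside 8.83% and 6.37%, with medians of −0.11 and −0.11. The largest member ratio was that of Gdf15 in MCC over MEF and in iPSC over MEF, and that of Mdm2 in MCC over iPSC. Of all calls between MCC and iPSC 53.7% were higher in MCC with TMM scaling and 41.9% with total counts, and between iPSC and MEF 58.1% were higher in iPSC with TMM scaling and 69.6% with total counts.

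Against the blood libraries most of the 10 genes were past the rule. In MCC relative to BM, 6 were higher (Cdkn1a, Cdkn1c, Cdkn2a, Cdkn2b, Gdf15 and Ccng1) and 1 lower (Btg2), beside 15.6% and 13.5% of 12427 genes. The median log2 ratio was 3.22 for the 10 and 0.11 over all genes tested. In MCC relative to PB, 5 were higher (the same genes without Cdkn1a) and 2 lower (Cdkn1b and Btg2), beside 21.5% and 15.4%, with medians of 1.99 and 0.38. Between PB and BM, 6 of the 10 reached 5 CPM, and 1 was higher in PB (Cdkn1a) and 0 lower, beside 6.32% and 9.68% of all genes. Over the 5 libraries, 7 of the 10 genes had every value of MCC, iPSC and MEF above both PB and BM, beside 32.2% of the 13998 genes at 5 CPM in any library. For 2 genes, Cdkn1b and Btg2, every value lay below, beside 24.6%, and only Mdm2 of the 10 overlapped.

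**Figure D3:**
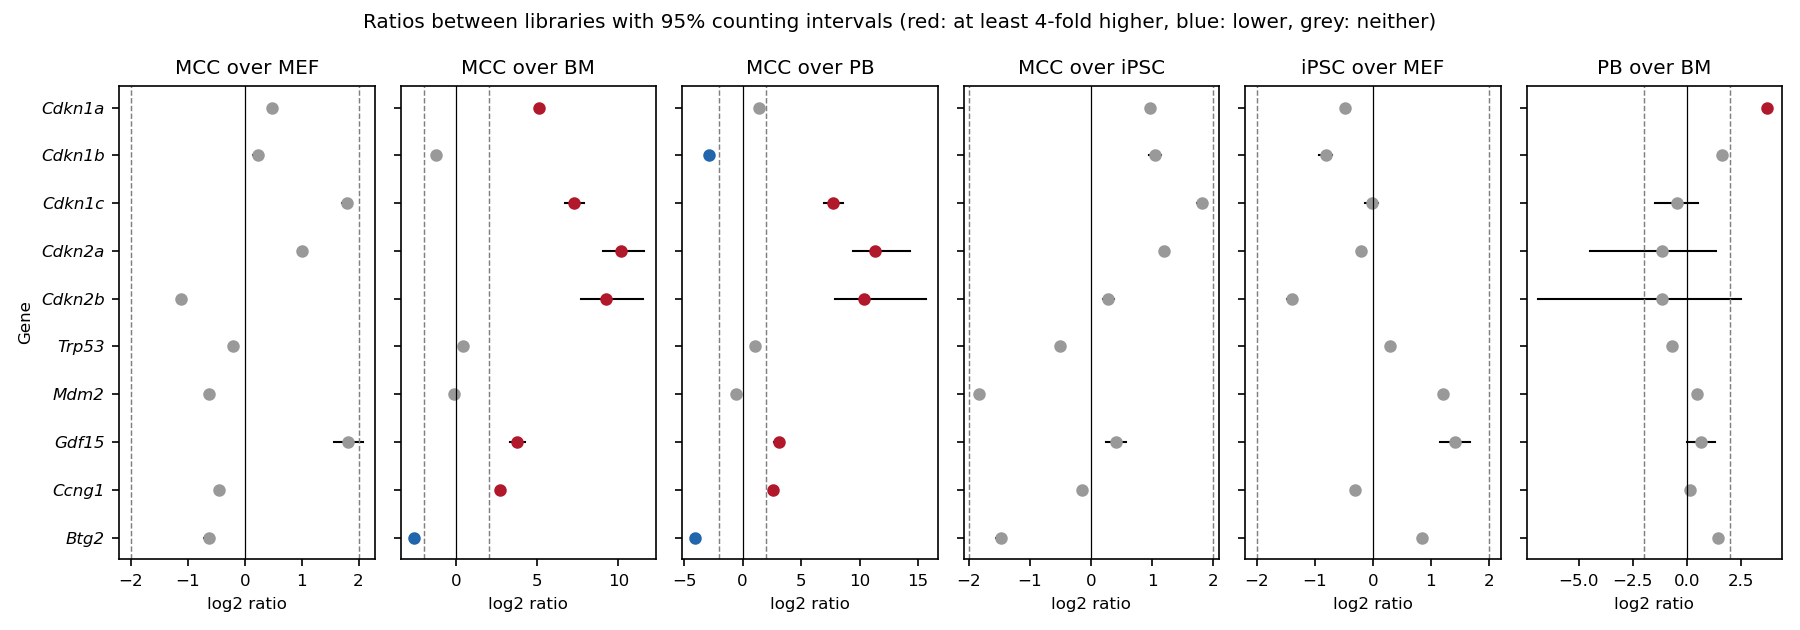
log2 ratio of each gene in 6 comparisons of 1 library with another, with 95% counting intervals; dashed lines mark 4-fold, and the horizontal scale differs between panels. No gene passes 4-fold in MCC over MEF, MCC over iPSC or iPSC over MEF, and 7 pass it in MCC over BM and in MCC over PB.

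Other p53 targets were read from 3 lists. Their counts, and those of all later lists, stand beside the shares over all genes tested. Against MEF, 8.05% of all genes were higher and 2.71% lower in MCC, and against BM 15.6% and 13.5%. Against PB the shares were 21.5% and 15.4%, and against iPSC 11.3% and 9.77%. Of 14 genes of arrest and feedback, 1 was higher and 2 lower in MCC than in MEF, 4 higher and 2 lower than in BM, 5 and 3 relative to PB, and 1 and 2 relative to iPSC. Their median log2 ratios were −0.15, 1.06, 1.14 and −0.48. Sesn1, which encodes the stress protein sestrin 1, was 17.1-fold (15.5 to 18.9) higher in MCC than in MEF, at 169 CPM in MCC and 9.85 in MEF, beside at most 3.54-fold for any of the 10 genes in that comparison. Phlda3, a repressor of AKT signalling, followed Cdkn2a in being high in 3 libraries, at 235 CPM in MCC, 298 in iPSC and 249 in MEF, against 1.74 in PB and 3.44 in BM. Ddit4l was 549-fold (98.2 to 21708) higher in MCC than in PB, on 1 read in PB. Of the list, Plk3 was 34.7-fold lower in MCC than in PB and Sfn (14-3-3 sigma) 152-fold lower in MCC than in iPSC.

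Cell death targets and DNA repair targets followed. Of 12 death genes, 0 were past the rule against MEF, 3 were higher and 1 lower against BM, 2 and 1 against PB, and 2 and 2 against iPSC, with medians of −0.32, 0.93, 0.16 and −0.33. Against MEF, where 8.05% of all genes were higher and 2.71% lower, several came near 4-fold. Fas, a death receptor, was 3.91-fold (3.40 to 4.51) higher and Dram1 3.37-fold (3.14 to 3.63) higher in MCC, and Pmaip1, which encodes NOXA, 3.63-fold (3.27 to 4.03) lower. Bax, the pore-forming death effector, was at 145 CPM in MCC, 122 in iPSC, 181 in MEF, 32.1 in PB and 30.8 in BM. Eda2r had 0 reads in PB and BM and 19.9 CPM in MCC, at least 198-fold and at least 270-fold higher. Perp was 111-fold lower in MCC than in iPSC and Dram1, an autophagy gene, 44.0-fold higher. Of 10 repair and metabolism genes, 1 was higher and 0 lower against MEF, 3 and 0 against BM, 2 and 1 against PB, and 0 and 0 against iPSC, with medians of 0.26, 0.72, 0.30 and −0.59. Rps27l stood at 279 CPM in MCC and 11.4 in PB, and Dcxr was 5.43-fold higher in MCC than in MEF. Of 13 regulators of p53 in the table, 0 were past the rule against MEF, and lower in MCC were 5 against BM, 5 against PB (1 higher) and 1 against iPSC; medians were −0.20, −1.28, −1.70 and −1.20. They include Atm, the kinase that signals DNA breaks, 5.89-fold lower in MCC than in PB, and Chek1, 7.32-fold lower in MCC than in iPSC. The p53 relatives Trp63 and Trp73 stayed at 3.66 CPM or less in every library, so 0 were past the rule.

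**Figure D4:**
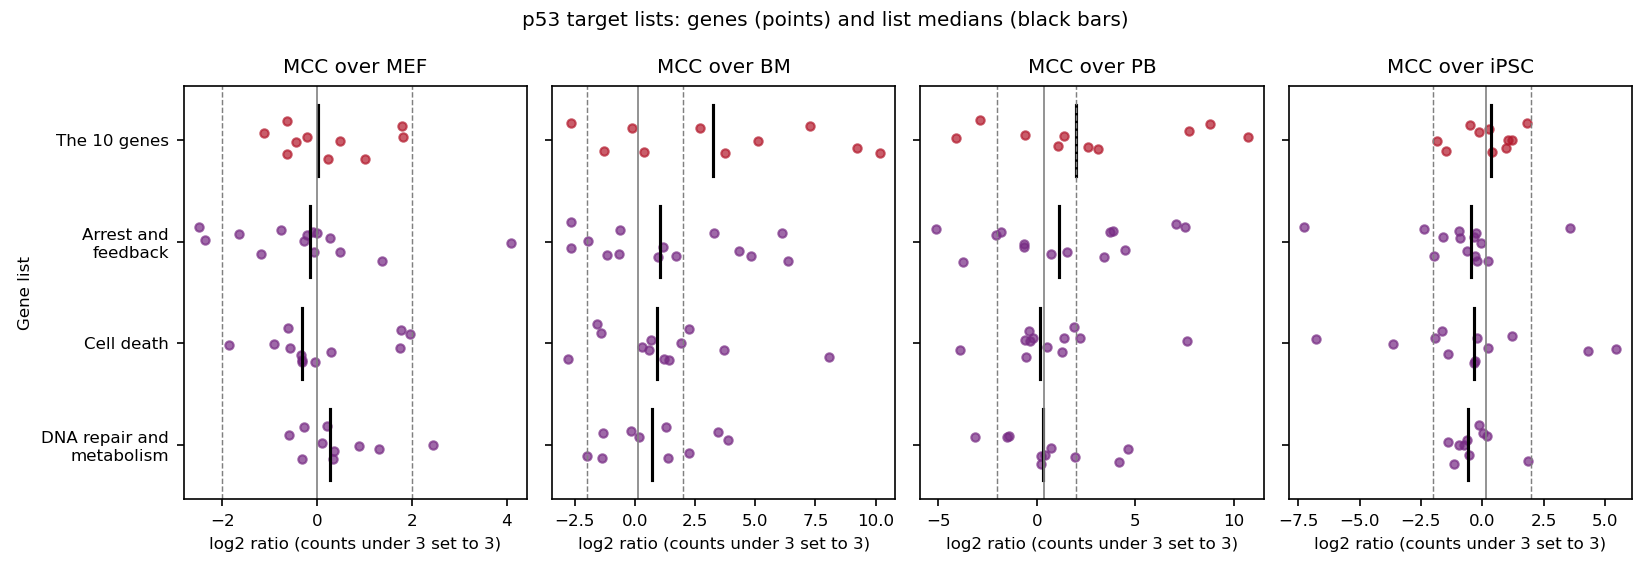
log2 ratios (counts under 3 set to 3) of MCC over MEF, BM, PB and iPSC for the 10 genes and for 3 lists of further p53 targets; points are genes, black bars list medians, the solid grey line the median of all genes tested and dashed lines 4-fold. Sesn1 stands highest of the arrest targets in MCC over MEF, at 17.1-fold.

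Genes that the inhibitors act on or through were set beside them. Proliferation genes had a median of 43.6 CPM in MCC, 170 in iPSC, 70.5 in MEF, 6.14 in PB and 182 in BM. All 28 were lower in MCC than in MEF, iPSC and BM, 0 of them past 4-fold against MEF, 15 against iPSC and 17 against BM, and 13 were past it on the higher side against PB. The share of all genes lower at any size was not computed. Their median log2 ratio of MCC to MEF was −0.87, beside −0.01 over all genes tested. Against BM it was −2.24 beside 0.11, against iPSC −2.08 beside 0.14, and against PB 1.81 beside 0.38. The iPSC library thus held Cdkn2a, Cdkn2b and Cdkn1a at 73.4, 36.3 and 200 CPM beside proliferation genes that were each above the MEF level. BM, with the highest median of proliferation genes, had Cdkn2a and Cdkn2b at a trace and Cdkn1a at 11.4 CPM. Other inhibitors were present in BM, with Cdkn1b at 118 CPM, Cdkn2c at 89.6 and Cdkn2d at 160. PB, with the lowest median, also had Cdkn2a and Cdkn2b at a trace, and Cdkn1a at 149 CPM. The part of the inhibitors in the levels of proliferation genes was not tested. Mki67, a marker of cycling cells, was at 71.2 CPM in MCC, 186 in iPSC, 165 in MEF, 57.1 in PB and 966 in BM. Its level in PB was far above the list median of 6.14 CPM there, so Mki67 does not stand for the list in PB. Of the 28 genes, 26 were higher in MCC than in PB at any size, with the largest ratio for Cdk1, at 27.5-fold.

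**Figure D5:**
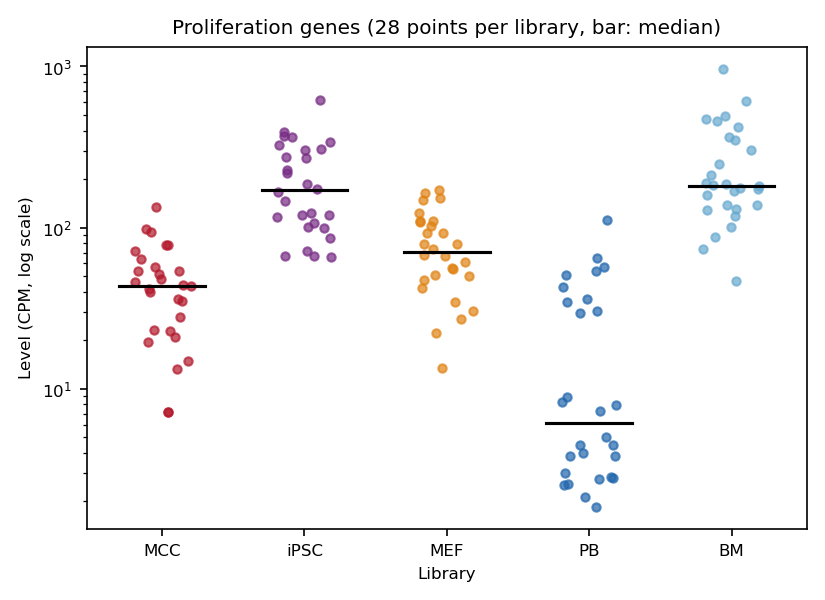
Levels (CPM, log scale) of 28 proliferation genes in each library; points are genes and black bars medians. The medians run from 6.14 CPM in PB to 182 CPM in BM, with 43.6 CPM in MCC.

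Of 8 G1 cyclins and kinases, 0 were past the rule between MCC and MEF (median log2 ratio −0.49). Cdk4, the kinase that INK4 proteins bind, was at 443 CPM in MCC, 322 in iPSC, 626 in MEF, 42.8 in PB and 194 in BM. Relative to PB and BM, Ccnd1, the cyclin D1 gene, was 71.2-fold and 9.73-fold higher in MCC, and Ccnd2 10.2-fold higher in MCC than in iPSC. In the list 2 were higher and 3 lower against BM, 2 and 0 against PB, and 1 and 1 against iPSC, with medians of −1.83, 1.15 and −1.32. Of 13 retinoblastoma and E2F genes, 0 were higher and 1 lower against MEF, 1 and 5 against BM, 2 and 1 against PB, and 0 and 2 against iPSC, with medians of −0.18, −1.91, 0.36 and −0.69; E2f7, a repressor of the cycle, was 4.39-fold lower in MCC than in MEF. Of 8 genes that control p27 protein or its gene, 0 were past the rule against MEF, BM and iPSC (medians 0.08, −0.58 and −0.70), and 2 were higher and 1 lower against PB (0.81). Foxo1, a transcription factor that activates Cdkn1b, was at 16.8 CPM in MCC, 35.5 in iPSC, 7.03 in MEF, 104 in PB and 31.9 in BM. Both genes were highest in PB, but iPSC came next for Foxo1 and was lowest for Cdkn1b, at 23.3 CPM. The part of Foxo1 in the levels of Cdkn1b was not tested.

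Polycomb and other regulators of Ink4a/Arf differed by gene. Of 16, 0 were higher and 2 lower in MCC than in MEF, 2 and 4 against BM, 2 and 5 against PB, and 0 and 6 against iPSC, with medians of −0.66, −0.54, −0.62 and −1.67. Cbx7, a polycomb subunit that represses the locus, had 6.92 CPM in MCC, 135 in iPSC, 1.76 in MEF, 231 in PB and 43.3 in BM. Its levels in PB, BM and iPSC were above those in MCC and MEF. Cdkn2a was at a trace in PB and BM but not in iPSC. The part of Cbx7 or of the other listed regulators in the levels of Cdkn2a was not tested. Hmga2, a chromatin protein known to hold Ink4a/Arf down in fetal stem cells, was 24.6-fold lower in MCC than in MEF, at 12.4 CPM in MCC and 305 in MEF. Tbx3, a repressor of Arf, had 14.2 CPM in MCC, 52.7 in iPSC, 24.0 in MEF and 0 reads in PB and BM. Ets1, an activator of Ink4a, was 160-fold lower in MCC than in PB, at 8.49 CPM in MCC and 1358 in PB.

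Senescence genes outside the 10 gave no single direction between MCC and MEF. Of 22 secreted factors, 3 were higher and 4 lower in MCC than in MEF (median log2 ratio −0.21), beside 8.05% and 2.71% of all genes. Against BM 11 were higher and 2 lower (median 2.85), beside 15.6% and 13.5%. Against PB the counts were 10 and 3 (2.99), beside 21.5% and 15.4%, and against iPSC 7 and 3 (1.69), beside 11.3% and 9.77%. Ccl8, a monocyte chemokine, led the higher side in all 4 comparisons, at 467 CPM in MCC. The matrix protease gene Mmp10 led the lower side against MEF, at 0.0463 CPM in MCC (2 reads) and 7.72 in MEF. Several of these factors are also made by macrophages, whose markers came to 7420 CPM in MCC and 3.08 in MEF, and the part of macrophages in these counts was not tested. Of 4 nuclear and lysosomal senescence markers, 0 were past the rule between MCC and MEF, 2 were lower against BM, 1 higher and 1 lower against PB, and 1 lower against iPSC, with medians of −0.22, −1.90, −0.32 and −0.91. Lmnb1 (lamin B1), which falls in senescence, had 44.4 CPM in MCC, 292 in iPSC, 77.6 in MEF, 302 in PB and 406 in BM. Glb1, the source of senescence-associated beta-galactosidase, was at 95.2 CPM in MCC, 40.3 in iPSC, 61.5 in MEF, 21.4 in PB and 36.3 in BM. Hmgb1 was at 245 CPM in MCC, 262 in iPSC, 372 in MEF, 184 in PB and 373 in BM. Hmgb2 was at 107 CPM in MCC, 354 in iPSC, 95.4 in MEF, 222 in PB and 1131 in BM. Between MCC and MEF, Lmnb1 and Hmgb1 were thus lower in MCC, and Glb1 and Hmgb2 higher. The part of macrophages in the Glb1 level was not tested.

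The genes whose profiles lay nearest to each of the 10 were found by the Euclidean distance between centred profiles of log2(CPM + 1) over the 5 libraries, among 12812 genes. Cdkn1c lay nearest to Adh7 (distance 0.15), a gene at 70.6 CPM in MCC, 18.8 in iPSC, 18.6 in MEF and 0 reads in PB and BM, and next to Ssc5d (0.39). Cdkn2a lay nearest to Prrx2 (0.40), a mesenchymal homeobox gene, and Pdpn (0.85), the podoplanin gene, and Cdkn2b to Steap2 (0.34) and the collagen hydroxylase gene P4ha2 (0.47). Trp53 had the closest neighbour of all, the exon junction gene Rbm8a (0.05), followed by Champ1 (0.12). Mdm2 lay nearest to Setd6 (0.20) and Pcgf6 (0.29), Ccng1 to Flrt3 (0.19) and Arhgap35 (0.26), and Gdf15 to Tbc1d16 (0.36) and Tfap2a (0.40). Btg2 was paired with Trp53i11 (0.24) and Unc5cl (0.50), Cdkn1b with Ikbkb (0.45) and Adora2a (0.45), and Cdkn1a with Cdon (0.97) and Cxcl1 (1.21), the loosest match. Among the 10 themselves the closest pair was Trp53 and Mdm2 (1.39) and the farthest Cdkn2a and Btg2 (10.29). With 5 libraries these distances describe profiles and say nothing of shared control.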

How the data were processed

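Polyadenylated RNA was sequenced from 5 kinds of mouse cells, 1 library each, matched to the table by the library code in the labels; 0 columns were left unused. The values are whole-number read counts per gene symbol, deposited by the authors without normalization. STAR and featureCounts are the tools, and mm10 the build, that the submitters' processing notes name. Versions, annotation, strand setting and filters: not given in the sources used here. CPM values were computed on TMM library sizes with edgeR 4.0.16 in R 4.3.3, the rest with Python 3.11.15, scipy 1.17.1, pandas 2.3.3 and numpy 2.4.6, and plots with matplotlib 3.10.9. One read was worth between 0.0191 CPM (iPSC) and 0.0335 CPM (PB). With 1 library per group no test was run. Intervals are exact (Clopper-Pearson on the conditional binomial for ratios, Poisson for levels); reads carried no stated molecular identifiers. Where a library had 0 reads, ratios were taken against a floor of 3 counts per library as lower bounds. The calculation was checked on simulated counts that held counting error only, which cannot speak to spread between replicates or to scaling.

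The 10 genes, 16 pathway lists and 7 marker lists were chosen with earlier results of these data known. Lists hold 231 genes, 230 of them in the table; counts take members at 5 CPM or more in either library, and medians every member in the table with reads. Rfwd2, a regulator of p53, was not analysed here. Named from each list were the member past the rule with the largest ratio in each direction and the member highest in MCC, as far as the text describes them, and the 2 genes nearest in profile to each of the 10. Mki67, Trp73 and Fas were chosen after their values were seen. Exon lengths, coordinates and overlaps came from GENCODE M21 on mm10, in which 33820 of the symbols matched. Alternatives were DESeq2 1.42.0 size factors, total counts, TMM without the 10 most abundant genes of each library and the mitochondrial and haemoglobin genes, no minimum CPM, a minimum of 20 CPM, and a call on the interval's nearer bound.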

Additional observations from a re-analysis of the deposited data

How the results depend on the processing

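The 60 ratios of the 10 genes were recomputed with DESeq2 size factors, with total counts and with TMM after leaving out the most abundant, mitochondrial and haemoglobin genes. Of these 180 values 125 stayed within the counting interval and 55 moved beyond it, by at most 0.28 on the log2 scale with DESeq2 size factors, 0.39 with total counts and 0.0029 with the genes left out. With total counts 1 of the 10 genes (Mdm2) was at least 4-fold lower in MCC than in iPSC, and 4 ratios changed sign, those of Ccng1, Cdkn1c and Cdkn2a in iPSC over MEF and of Cdkn2b in MCC over iPSC. The median of all genes shifted by −0.39 (MCC over iPSC), 0.36 (iPSC over MEF), −0.14 (MCC over BM) and −0.13 (MCC over PB) with total counts, and by −0.28 (MCC over PB) and 0.18 (PB over BM) with DESeq2 size factors. Counts over all genes depended on the minimum level. With no minimum, 1851 genes were higher and 885 lower in MCC than in MEF, 3368 and 3666 than in BM, 4219 and 4869 than in PB, and 2451 and 3242 than in iPSC; 3136 were higher and 1445 lower in iPSC than in MEF, and 2169 and 2083 in PB than in BM. With a minimum of 20 CPM, 589 were higher and 162 lower in MCC than in MEF, 1243 higher than in BM, 1798 higher than in PB and 613 lower than in iPSC; 464 were higher and 492 lower in iPSC than in MEF, and 421 and 700 in PB than in BM. No paired analysis was possible because each group has 1 library. Depth limits Cdkn2a and Cdkn2b in PB and BM, which rest on 1 to 6 reads.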

Other observations

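Gdf15 is also induced by the integrated stress response, and a list of genes of that response differed by comparison. In a list of 10 stress response genes, MCC against MEF gave 0 past 4-fold on the higher side and 1 on the lower (median log2 ratio −1.07), where Gdf15 itself had 13.8 CPM in MCC against 3.91 in MEF. Atf3, a stress-induced transcription factor, was 3.20-fold (2.86 to 3.59) higher in MCC than in MEF, at 29.97 CPM in MCC and 9.36 in MEF. Chac1, a glutathione-degrading enzyme, was 7.01-fold lower in MCC than in MEF, at 9.19 CPM in MCC and 64.4 in MEF, and Trib3, a pseudokinase of the response, had 57.3 CPM in MCC against 191 in MEF. Atf4, its main transcription factor, was at 297 CPM in MCC, 172 in iPSC, 502 in MEF, 379 in PB and 231 in BM. Relative to BM 3 were higher and 0 lower (median 1.15), relative to PB 4 and 1 (1.02), and relative to iPSC 0 and 0 (0.75). Gdf15 was also higher in iPSC than in MEF, 2.66-fold (2.23 to 3.18). In that comparison 4 of the 10 stress response genes passed 4-fold on the lower side and 0 on the higher, beside 6.37% and 8.83% of all genes. The part of the stress response in the levels of Gdf15 was not tested.

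The 8 listed neighbours of Cdkn1c in its imprinted region of chromosome 7 differed in profile. Counts per symbol add both alleles, so whether each was imprinted in these cells was not tested. Slc22a18, a transporter gene, was highest in MCC as Cdkn1c was, at 8.24 CPM in MCC, 3.42 in iPSC, 0.694 in MEF, 0.435 in PB and 0.957 in BM. It was 11.9-fold (8.17 to 17.9) higher in MCC than in MEF, 8.61-fold (6.17 to 12.3) higher than in BM and 18.9-fold (10.9 to 35.9) higher than in PB. Cd81, a tetraspanin gene, was at 439.5 CPM in MCC, 441 in iPSC, 418 in MEF, 35.4 in PB and 90.5 in BM, so it was also lower in both blood libraries. Phlda2, imprinted in the same direction, was at 0.0463 CPM in MCC (2 reads), 27.2 in iPSC, 0.139 in MEF, 0 in PB (0 reads) and 0.123 in BM, whereas Cdkn1c was highest in MCC. Kcnq1ot1 is the noncoding RNA that silences the cluster in cis. It was at 3.63 CPM in MCC, 2.28 in iPSC, 5.53 in MEF, 21.5 in PB and 7.19 in BM. Cdkn1c stood at 105, 29.7, 30.2, 0.502 and 0.687 CPM in the same order. The part of Kcnq1ot1 in the levels of Cdkn1c was not tested. Of the 8 neighbours, 2 were at least 4-fold higher and 0 lower in MCC than in MEF, 2 and 1 relative to BM, 3 and 1 relative to PB, and 1 and 2 relative to iPSC, with median log2 ratios of 0.54, 0.05, 1.26 and 0.27. Tspan32, a blood cell tetraspanin gene, led the higher side against MEF, at 21.5 CPM in MCC and 0.139 in MEF. Btg1, the closest relative of Btg2, shared the order of the blood libraries, at 2008 CPM in PB and 333 CPM in BM, and was 12.4-fold lower in MCC than in PB. Of the 5 BTG and TOB relatives of Btg2, 0 were past the rule in MCC against MEF, BM or iPSC (medians −0.04, −0.66 and 0.27) and 1 was lower against PB (−0.81).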
